A study of Mus musculus with 10 samples.

Results

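The cytosolic ribosomal protein genes encode the protein part of the ribosome of the cytoplasm, the large subunit through the Rpl and Rplp genes and the small subunit through the Rps genes and Rpsa. Members were the gene symbols of the 3 deposited tables that follow this naming, and symbols ending in -ps were left out. This gave 81 members of 13976 genes, 47 of the large and 34 of the small subunit. The table for THZ1 in SMB56 held 75 members of its 10007 genes, the table for GDC-0449 in SMB56 held 75 of 10008, and the table for THZ1 in SMB56-shSufu held 80 of 12057, with 71 members in all 3. In the GENCODE M21 annotation 78 members are protein coding, while Rpl6l, Rps3a2 and Rps3a3 are listed as processed pseudogenes and were kept because the rule goes by symbol.

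SMB56 is a line from a spontaneous medulloblastoma of a Ptch+/- mouse, grown as neurospheres and used at passages 10 to 15, and SMB56-shSufu is the same line with a stable short hairpin RNA against Sufu, so that every library carries the Ptch background. SMB56 cells received DMSO, 0.1 µM THZ1, a covalent inhibitor of the transcriptional kinase CDK7, or 1 µM GDC-0449 (vismodegib), an inhibitor of the hedgehog signal transducer SMO. SMB56-shSufu cells received DMSO or 0.1 µM THZ1, and all treatments lasted 8 hours. RNA of each of the 5 groups was sequenced in 2 libraries, 10 in all. The labels number these libraries without saying that they came from separate cultures, and all p-values rest on the spread within these library pairs, possibly a technical one.

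Most ribosomal proteins are needed in equal numbers, and in mammalian cells the mRNAs of the family are among the most abundant and most stable. Their transcripts begin with a run of pyrimidines, the 5' TOP element, through which mTORC1 and LARP1 regulate their translation together. Several members also act outside the ribosome, as with Rpl5 and Rpl11, which as part of a complex with 5S rRNA restrain the p53 ligase MDM2.

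RefSeq promoter entries of build GRCm38.p6 were found for 58 of the 81 members. A C followed by at least 4 further C or T, starting no more than 10 bases after the annotated start on the strand of the gene, was present for 29 of these members (50%) and for 5643 of 27025 genes in the table (20.9%). The run is the feature the family is known for, and 5 examples are shown because the results turn on these members in different directions, each from 30 bases before the annotated start to 20 bases from it, with the run in capitals.
Rps6 (chr4:86857348-86857397, minus strand): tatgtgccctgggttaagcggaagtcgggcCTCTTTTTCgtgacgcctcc
Rpl15 (chr14:18270967-18271016, minus strand): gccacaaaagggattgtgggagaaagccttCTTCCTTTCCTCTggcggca
Rplp2 (chr7:141447621-141447670, plus strand): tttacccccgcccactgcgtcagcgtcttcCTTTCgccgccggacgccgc
Rps27 (chr3:90213629-90213678, minus strand): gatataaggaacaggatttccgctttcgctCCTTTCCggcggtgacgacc
Rps21 (chr2:180257349-180257398, plus strand): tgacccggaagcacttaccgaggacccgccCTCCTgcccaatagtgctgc

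With THZ1, Rps6 and Rpl15 were among the members whose share of the family was lowest relative to DMSO in SMB56 and Rplp2 among the highest in SMB56-shSufu, and all 3 windows hold the run. Members as far out had windows without it, such as Rpl7a among the lowest and Rplp0 as the highest of the well-counted members in SMB56, and Rpl6 among the lowest in SMB56-shSufu. Against the family, the median THZ1 log2 fold change in SMB56 was 0.02 for the 27 tested members with the run and 0.01 for the 26 without it. In SMB56-shSufu it was -0.0013 for the 28 with the run and 0.03 for the 29 without. These are descriptions, and the lack of a run by this rule says nothing about the transcript's true start.

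A library held 10614268 to 14986389 counts in the SMB56 tables and 30100041 to 33254885 in the SMB56-shSufu table. Sufu, the target of the hairpin, had 82.0 and 77.2 CPM (counts over its table's total) in SMB56 with DMSO and 111 and 119 with THZ1. The SMB56-shSufu libraries had 21.2 and 22.1 with DMSO and 72.5 and 67.5 with THZ1, below SMB56 under the same treatment but above its own DMSO libraries. Gli1, the transcriptional readout of the hedgehog pathway, had 168 and 164 CPM with DMSO and 11.4 and 13.5 with GDC-0449. All 5 granule neuron lineage markers (Atoh1, Zic1, Barhl1, Meis1 and Neurod1) were measured in each table. Of the lists for other cell types, none of the 4 microglial, 3 endothelial, 4 fibroblast and 2 erythroid markers could be tested. Gfap, an astrocyte marker, had 17 and 18 counts with DMSO and 110 and 101 with THZ1 in SMB56 (log2 fold change 3.14 under TMM scaling), and the myelin gene Mog had 10 and 17 against 40 and 32. The part of these cell types in the members' values was not tested. In bulk RNA, fewer cells of a type and less RNA per cell cannot be told apart.

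Members differed widely in level. In the SMB56 DMSO libraries the median of 79 members was 677 FPKM, the authors' value corrected for transcript length and depth. The highest means in the GDC-0449 table were those of the small subunit members Rps27 (3323 and 4001 FPKM in the DMSO libraries) and Rps28 (2867 and 2851 FPKM) and the large subunit member Rpl38 (2640 and 2899 FPKM). The lowest were Rps3a2 (53.4 and 74.8 FPKM), Rps3a1 (127 and 107 FPKM) and Rpl29 (186 and 176 FPKM). Rps3a2 is one of the annotated pseudogenes, and its reads could be split with those of Rps3a1. Rpl3l, the muscle paralogue of Rpl3, had 1 count in each SMB56 DMSO library and is listed at 0 FPKM there, whereas Rpl3 had 272 and 256 FPKM. Rpl13 and Rpl39l were not analysed here.

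Read counts and FPKM did not describe every member alike. Rpl24 had 1082 and 846 FPKM in the SMB56-shSufu DMSO libraries but only 44 and 22 counted reads. Per FPKM and transcript length its reads were 780-fold fewer than for the median member, and those of Rpl13a were 22.6-fold fewer in the same libraries and 48.5-fold fewer in the SMB56 DMSO libraries. The reason was not tested, and the counts of Rpl24 and Rpl13a cannot be read as their levels. Many members have processed pseudogenes of near-identical sequence, so that their counts are uncertain where reads could be split among copies. For the THZ1 fold changes against the family, counts and FPKM correlated across genes with Pearson's r of 0.94 over 74 members in SMB56 and 0.97 over 79 in SMB56-shSufu, with the same sign for 71 and 76 of them, as a description. For the difference between the lines under DMSO, r was lower, at 0.84 over 78 members, of which 60 had the same sign.

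The question the 2 compounds raise for this family is whether its mRNAs follow the rest of the transcriptome. Over the 7244 genes that all 3 tables hold, members took 5.77% and 5.54% of counts in the SMB56 DMSO libraries, 7.38% and 6.86% in the THZ1 libraries, and 5.72% and 5.54% in the GDC-0449 libraries. The THZ1 libraries lay above both other groups, which overlapped. In SMB56-shSufu, members took 5.96% and 5.98% with DMSO and 5.56% and 4.48% with THZ1, both below the DMSO libraries and unequal to each other. Small subunit reads stood at 0.82 to 0.89 of large subunit reads in every library. The share of mitochondrially encoded genes went from 3.96% in both DMSO libraries to 8.01% and 6.96% with THZ1 in SMB56, and from 7.46% and 10.4% to 16.2% and 16.1% in SMB56-shSufu. Ribosomal RNA-like genes went from 0.0476% and 0.0474% to 5.84% and 5.95% of the counts of the SMB56 table. With mitochondrially encoded and ribosomal RNA-like genes left out, the 71 common members took 5.67% and 5.44% with DMSO against 8.03% and 7.38% with THZ1 in SMB56, and 5.02% and 5.19% against 5.29% and 4.31% in SMB56-shSufu. The part of these genes in the other results was not tested.

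**Figure D1:**
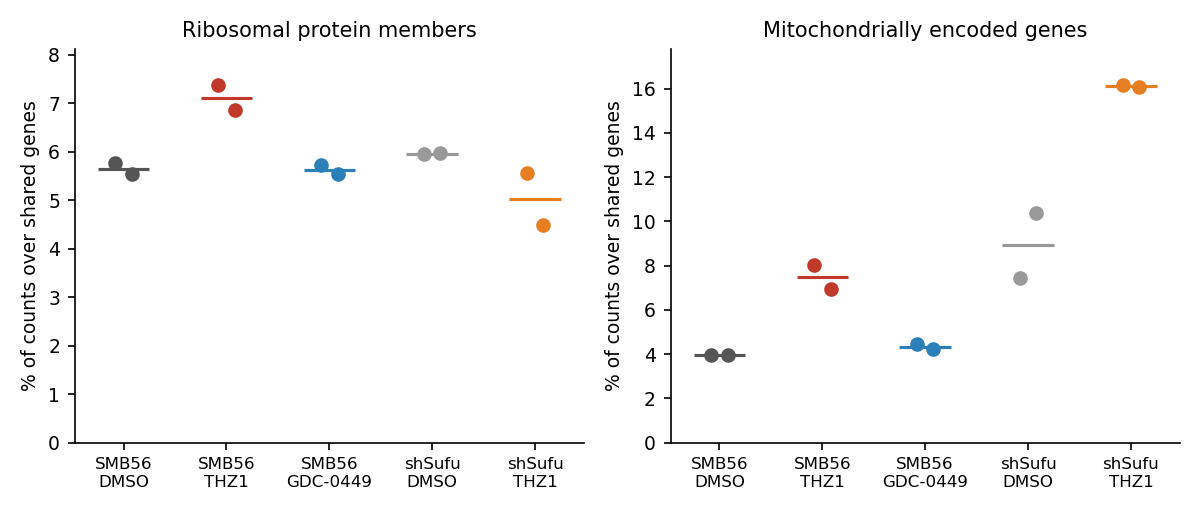
Percent of the counts over the 7244 genes shared by the 3 tables that fell on the 71 common ribosomal protein members (left) and on mitochondrially encoded genes (right), each point 1 library and each short line the mean of 2. The members' share is highest in the SMB56 THZ1 libraries (7.38% and 6.86%), while the mitochondrial share is highest in SMB56-shSufu with THZ1 (16.2% and 16.1%).

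With THZ1 in SMB56, 73 of 75 members were higher and 1 lower under TMM scaling, which assumes that most genes keep their level (edgeR's quasi-likelihood test, Benjamini-Hochberg adjusted p below 0.05). The median log2 fold change was 0.64, against -0.31 over all 9863 genes tested. Of all genes, 44.3% were called higher and 55.2% lower. The authors' deposited table holds almost only genes past their own threshold (9999 of 10007), so members in it had to differ, and these counts describe the table. Rplp0, the stem of the ribosomal stalk that binds elongation factors, was highest among the well-counted members (1.25 ± 0.06, edgeR adjusted p 5.3e-14), but at -0.03 under mitochondrial scaling. Only Rps6, the S6 kinase substrate of the small subunit, fell (-0.17 ± 0.05, edgeR adjusted p 0.0048), a direction that turned with DESeq2's size factors (0.14) and in the fit of all 10 libraries (0.09), and Rpl7a of the large subunit was at -0.10 ± 0.05, edgeR adjusted p 0.066. The median was below 0, at -0.64, when libraries were scaled by their mitochondrially encoded reads (1 higher, 69 lower), 0.27 with library size and 0.12 on FPKM with limma (32 higher, 8 lower). Such scalings shift all genes alike, so the median of all genes moved with that of the members. The members' distance of 0.95 above all genes on the log2 scale was thereby fixed under TMM, library size and mitochondrial scaling. Its constancy is no sign of robustness. In the fit of all 10 libraries, over the genes that all 3 tables hold, the distance was 1.11. Large and small subunit members had close values, with 41 of 42 higher and a median of 0.65 against 32 of 33 and 0.64. Rpl11, Rpl13a, Rpl24, Rpl6, Rpl6l and Rps27l have no THZ1 value in SMB56 here.

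With THZ1 in SMB56-shSufu, 23 of 80 members were higher and 5 lower under TMM scaling, with a median of 0.12 against -0.04 for all 11886 genes tested. The background was 29.5% higher and 32.3% lower. The share of members called higher was thus near that of all genes, while the share called lower, 5 of 80, was below that of all genes. The coefficient of variation within groups that edgeR estimated was 13.3% here and 3.02% with THZ1 in SMB56. Small changes were thus harder to call in SMB56-shSufu, and the counts of calls in the 2 lines are not comparable. Rps29 (1.15 ± 0.16, edgeR adjusted p 4.8e-05), a small zinc-binding protein of the small subunit, and Rplp0 (1.05 ± 0.17, edgeR adjusted p 0.00015) were the highest of the well-counted members, and Rps6 (-1.18 ± 0.17, edgeR adjusted p 7.4e-05) and Rpl17 (-0.98 ± 0.17, edgeR adjusted p 0.0003) the lowest. Under library size scaling 3 members were higher and 33 lower, under mitochondrial scaling 0 and 66 (edgeR, 0 higher also at an unadjusted p below 0.05), and on FPKM with limma 0 and 39. Without the second THZ1 library, whose member share was lowest, the median was 0.28, and without the first it was -0.04. The count of members higher was 8 without the first, and that of members lower was 2 without the second and 9 without the second DMSO library. In the fit of all 10 libraries 35 were higher.

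The difference of these THZ1 effects was then tested itself over the genes that could be fitted in both lines. Under TMM scaling 42 of 74 members had a lower effect in SMB56-shSufu than in SMB56 and 0 a higher one (0 also at an unadjusted p below 0.05 and with DESeq2), with a median difference of -0.62. Of all 8204 genes 10.4% had a higher and 7.89% a lower effect, and their median difference was 0.03. The direction held for the median under each scaling run, from -0.56 to -0.71. The count of lower effects was 1 under mitochondrial scaling and 11 on FPKM. It was 11 and 10 without the first and second SMB56 DMSO library, 4 and 14 without the first and second SMB56 THZ1 library, and 68 and 23 without the first and second SMB56-shSufu THZ1 library. The 2 lines were deposited in separate tables at different depths, and the line and the table cannot be told apart in these data. Of the SMB56 THZ1 table, 9999 of 10007 genes had passed the authors' threshold, so members entered this test through a change in SMB56. Such a selection can tilt the difference towards a smaller effect in SMB56-shSufu, and its part was not tested.

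Within the family a second pattern appeared. For this, each library was scaled by the summed counts of the 71 common members, so that a fold change is the change of a member's share of the family. With THZ1 in SMB56, 18 of 75 members were higher and 23 lower against the family, with 27.0% of all genes higher and 60.6% lower on this scale. In SMB56-shSufu, 9 of 80 were higher and 10 lower, with 19.3% of all genes higher and 34.2% lower. The 41 members called in SMB56 became 12 without either DMSO library and 23 in the fit of all 10 libraries. The 19 called in SMB56-shSufu became 6 and 5 without the first and second DMSO library and 11 without the second THZ1 library, but 34 on FPKM and 42 in the fit of all 10. Of the 74 members tested in both lines, 40 were called in SMB56 and 16 in SMB56-shSufu. With coefficients of variation within groups of 5.83% and 17.1% in edgeR, these 2 counts are not comparable. The lists shared 12 members, 30% of the first and 75% of the second, and all 12 had the same sign, 6 higher and 6 lower. Over all 74 members 66 had the same sign, and the fold changes of the 2 lines correlated with Pearson's r of 0.86 and Spearman's rho of 0.86 across genes, and with r of 0.84 without Rps6 and Rpl17. The 2 comparisons share no library, but genes are not independent replicates. No such overlap or correlation is given over all genes, so whether the agreement is particular to the family was not tested.

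**Figure D2:**
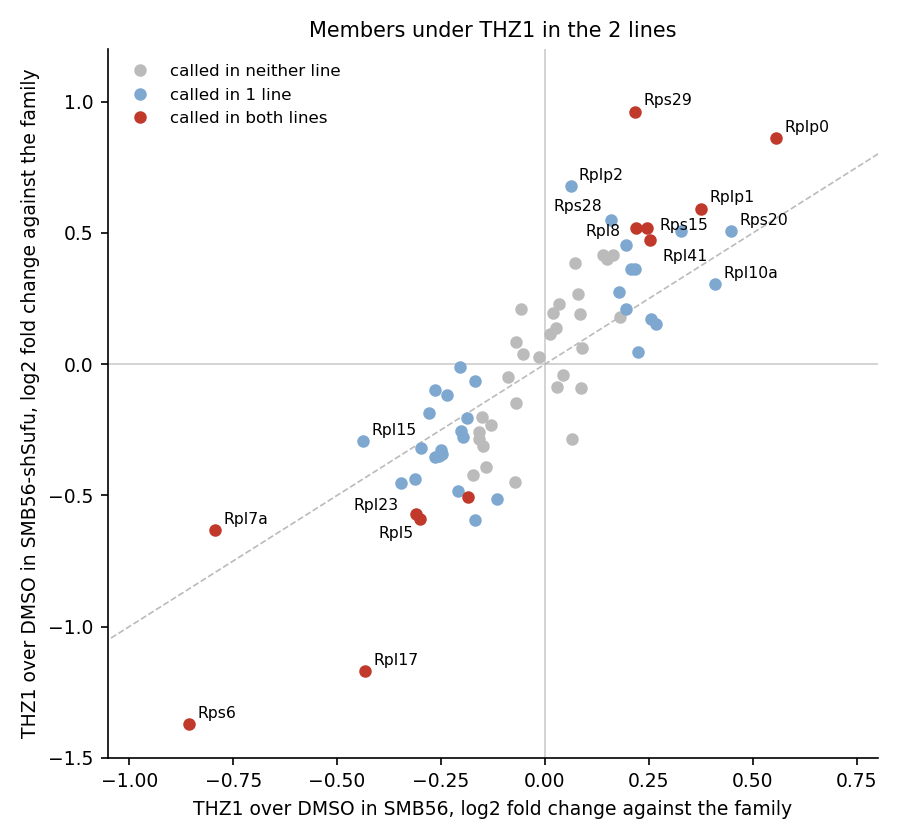
Log2 fold change of THZ1 over DMSO against the family for 74 members, in SMB56 (x axis) and in SMB56-shSufu (y axis), with the dashed line of equal change. Red points are the 12 members called in both lines, with Rps6, Rpl17 and Rpl7a at the lower left and Rplp0, Rps29 and Rplp1 at the upper right.

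Of the members lower in both lines, Rps6 changed most. Per 1000 reads of the common members it had 13.9 and 13.2 in the SMB56 libraries with DMSO, 7.45 and 7.49 in those with THZ1 and 13.4 and 13.2 in those with GDC-0449, and 20.04 and 18.6 with DMSO and 7.60 and 7.32 with THZ1 in SMB56-shSufu. The THZ1 libraries of both lines lay below every other library. Its log2 fold change against the family was -0.86 ± 0.09, edgeR adjusted p 5.5e-23 in SMB56 and -1.37 ± 0.22, edgeR adjusted p 1.2e-08 in SMB56-shSufu. Per 1000 reads Rpl7a, whose introns host snoRNAs, had 18.6 and 18.5 with DMSO against 10.8 and 10.5 with THZ1 in SMB56, and 26.96 and 24.6 against 16.5 and 16.7 in SMB56-shSufu. The groups did not overlap within either line, and the fold changes were -0.79 ± 0.08, edgeR adjusted p 2.8e-21 and -0.63 ± 0.21, edgeR adjusted p 0.0077. For Rpl17, a protein near the exit of the peptide tunnel, the shares were 13.6 and 13.5 against 10.05 and 10 per 1000 in SMB56 and 14.7 and 14.1 against 6.60 and 6.19 in SMB56-shSufu. It fell in both, by more in SMB56-shSufu (-1.17 ± 0.23, edgeR adjusted p 1.7e-06) than in SMB56 (-0.43 ± 0.08, edgeR adjusted p 4.2e-07).

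The 5S rRNA partner Rpl5 also fell in both lines, with 14.8 and 14.4 per 1000 against 11.7 and 12 in SMB56 (-0.30 ± 0.08, edgeR adjusted p 0.0004) and 15.8 and 15.3 against 10.4 and 10.2 in SMB56-shSufu (-0.59 ± 0.22, edgeR adjusted p 0.017). Its partner Rpl11 could be measured with THZ1 in SMB56-shSufu alone, at 14.02 and 13.2 per 1000 with DMSO and 9.97 and 9.24 with THZ1. That fall was called (-0.51 ± 0.22, edgeR adjusted p 0.044), but it was lost without each library in turn, with the replicate number as a block, and with TMM over the members. Rpl6, another large subunit member absent from the SMB56 THZ1 table, fell from 22.3 and 19.6 to 11.3 and 10.9 per 1000 in SMB56-shSufu (-0.92 ± 0.22, edgeR adjusted p 0.00012). Rpl15, of the large subunit core, fell in SMB56 (-0.44 ± 0.09, edgeR adjusted p 7.3e-07) and was at -0.29 ± 0.23, edgeR adjusted p 0.27 in SMB56-shSufu. The calls of Rpl5 in SMB56 and in SMB56-shSufu were lost without either DMSO library of that line, and so was that of Rpl7a in SMB56-shSufu. Rpl23 (-0.31 ± 0.08 and -0.57 ± 0.21) was also among the members lower in both lines and is named after its values were seen. Its call in SMB56-shSufu was lost without either DMSO library of that line.

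The stalk proteins Rplp0, Rplp1 and Rplp2, which together recruit elongation factors to the large subunit, were on the other side. Their summed share was 44.2 and 45.9 per 1000 in SMB56 given DMSO, 61.4 and 59.7 given THZ1 and 44.8 and 44.8 given GDC-0449, and 32.9 and 34.95 with DMSO against 54.1 and 58.3 with THZ1 in SMB56-shSufu. Every THZ1 library was above every other library. Rplp0 itself went from 20.4 and 22.01 to 32.1 and 30.3 per 1000 in SMB56 (0.56 ± 0.08, edgeR adjusted p 1.5e-12) and from 15.04 and 15.4 to 26.7 and 28.5 in SMB56-shSufu (0.86 ± 0.21, edgeR adjusted p 0.00024). The groups did not overlap in either line. Rplp1 rose in both (0.37 ± 0.08, edgeR adjusted p 3.8e-06 and 0.59 ± 0.22, edgeR adjusted p 0.014), the second call lost without either DMSO library or the second THZ1 library. Rplp2 rose in SMB56-shSufu (0.68 ± 0.23, edgeR adjusted p 0.0081), lost without either DMSO library, and was at 0.06 ± 0.09, edgeR adjusted p 0.51 in SMB56.

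Among other members, Rps20 of the small subunit head rose in SMB56, from 8.41 and 8.10 to 11.1 and 11.4 per 1000 (0.45 ± 0.09, edgeR adjusted p 3.0e-07), and was at 0.51 ± 0.23, edgeR adjusted p 0.051 in SMB56-shSufu. Rpl10a, of the stalk on the tRNA exit side, rose in SMB56 (0.41 ± 0.08, edgeR adjusted p 9.6e-07) and was at 0.31 ± 0.22, edgeR adjusted p 0.23 in SMB56-shSufu. Rps29 had 14.8 and 12.2 per 1000 with DMSO and 15.1 and 16.3 with THZ1 in SMB56, groups that lay close together, and 5.42 and 5.64 against 10.6 and 10.97 in SMB56-shSufu, where they were far apart. It rose in both (0.22 ± 0.08, edgeR adjusted p 0.01 and 0.96 ± 0.23, edgeR adjusted p 0.00011). Rpl8 (0.22 ± 0.08 and 0.52 ± 0.21), Rps15 (0.25 ± 0.08 and 0.52 ± 0.21) and Rpl41 (0.25 ± 0.08 and 0.47 ± 0.21) complete the 6 members higher in both lines and are named after their values were seen. In SMB56-shSufu the calls of Rpl8, Rps15 and Rpl41 were lost without the second DMSO library. Rpsa, the laminin receptor protein of the small subunit, rose in SMB56 (0.20 ± 0.08, edgeR adjusted p 0.012), a call lost without either DMSO library, on FPKM and in the fit of all 10 libraries, and was at 0.21 ± 0.20, edgeR adjusted p 0.39 in SMB56-shSufu. Rps3, of the mRNA entry site, fell in SMB56 (-0.26 ± 0.08, edgeR adjusted p 0.0013), a call lost without either DMSO library, and was at -0.10 ± 0.22, edgeR adjusted p 0.73 in SMB56-shSufu. Rpl22, a large subunit protein not essential for translation, was at 0.02 ± 0.09, edgeR adjusted p 0.84 and 0.20 ± 0.23, edgeR adjusted p 0.49. Rps27l, a p53-induced paralogue of Rps27, was at -0.17 ± 0.23, edgeR adjusted p 0.56 in SMB56-shSufu. Rpl24 was called higher in SMB56-shSufu (1.07 ± 0.48, edgeR adjusted p 0.048), but its counts were 44 and 22 with DMSO and 40 and 70 with THZ1, groups that overlap, and its level was 1082 and 846 FPKM against 621 and 446 FPKM. Rpl3l went from 1 count in each DMSO library to 14 and 16 in SMB56.

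**Figure D3:**
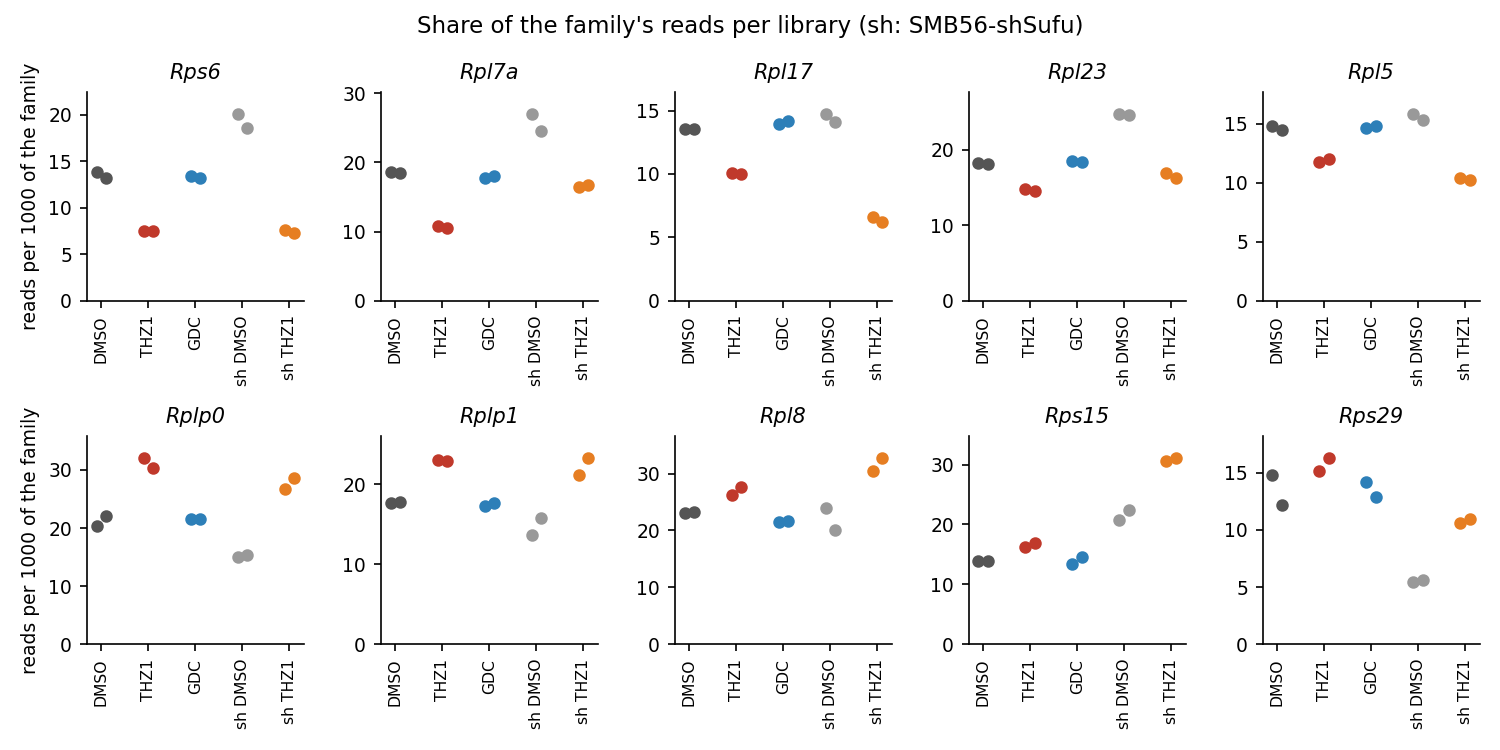
Reads of 10 members per 1000 reads of the 71 common members in each library, 2 points per group in the order SMB56 DMSO, THZ1 and GDC-0449 and SMB56-shSufu DMSO and THZ1. The upper 5 members were lower with THZ1 in both lines and the lower 5 higher in both, with Rps6 falling from 20.04 and 18.6 to 7.60 and 7.32 in SMB56-shSufu.

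The THZ1 effect against the family differed between the lines for 4 of 74 members. The background on this scale, where the lower family effect of SMB56-shSufu shifts all other genes, was 54.6% higher and 0.475% lower. The effect was higher in SMB56-shSufu for Rps29 (0.75 ± 0.19, edgeR adjusted p 0.0059) and Rplp2 (0.62 ± 0.19, edgeR adjusted p 0.014) and lower for Rpl17 (-0.74 ± 0.18, edgeR adjusted p 0.0042) and Rps6 (-0.52 ± 0.18, edgeR adjusted p 0.024). The call of Rpl17 held without each library, that of Rps29 was lost without the first SMB56 DMSO library, that of Rplp2 without 3 of the 8 libraries and that of Rps6 without 5. Next in order were Rps28 (0.39 ± 0.17, edgeR adjusted p 0.067) and Rpl38 (0.31 ± 0.18, edgeR adjusted p 0.14) on the higher side, and Rpl36a (-0.42 ± 0.19, edgeR adjusted p 0.065) and Rps26 (-0.40 ± 0.17, edgeR adjusted p 0.062) on the lower side, none of which passed.

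Features of the transcripts were set beside these fold changes as a description. Over 72 protein-coding members the THZ1 fold change against the family in SMB56 had a Spearman's rho of -0.16 with transcript length, 0.30 with GC content and 0.23 with FPKM under DMSO, and over 76 in SMB56-shSufu these were -0.33, 0.33 and 0.14. The annotation marks 29 of the 72 as hosts of a noncoding RNA, such as a snoRNA inside an intron, and their median fold change was -0.07 against 0.02 for the other 43. In SMB56-shSufu it was -0.15 for 31 hosts and 0.04 for 45 others. Members share libraries and counting, and these values carry no test.

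With GDC-0449 the family stood where all genes stood. Under TMM scaling 8 of 75 members were higher and 16 lower, with a median of -0.01 and the same for all 10008 genes. Of all genes 17.5% were higher and 18.8% lower. Under mitochondrial scaling 0 members were higher, 0 also at an unadjusted p below 0.05 in edgeR, and 45 lower. On FPKM with limma 0 were higher and 0 lower, against 2 and 1 at an unadjusted p below 0.05, and DESeq2 called 3 and 7. Against the family 4 were higher and 5 lower, with 15.4% and 11.4% of all genes. The 9 called became 1 without the first DMSO or the first GDC-0449 library and 3 without the second GDC-0449 library. This comparison and that of THZ1 share the SMB56 DMSO libraries, so they are not independent. Rps2, at the mRNA channel of the small subunit, went from 45.3 and 44.6 to 38.5 and 38.7 per 1000 (-0.22 ± 0.04, edgeR adjusted p 1.4e-05), without overlap of the groups. The call of Rps2 was lost in the fit of all 10 libraries and held under the 9 other alternatives. Rps2 was at 51.8 and 56.4 with THZ1, above DMSO (0.27 ± 0.07, edgeR adjusted p 0.0003). Rpl29 (-0.22 ± 0.06, edgeR adjusted p 0.0028), Rps3a1 (-0.18 ± 0.06, edgeR adjusted p 0.017) and Rpl18 (-0.17 ± 0.05, edgeR adjusted p 0.0052) fell. Each of these calls was lost on FPKM, in the fit of all 10 libraries and without the first DMSO or the first GDC-0449 library, and Rpl18 and Rps3a1 also without the second GDC-0449 library. That of Rps3a1 was also lost with DESeq2. Rps27 went from 12.5 and 13.4 to 15.4 and 14.4 per 1000 (0.20 ± 0.05, edgeR adjusted p 0.00065), Rpl23a, at the tunnel exit, from 10.8 and 11.2 to 12.3 and 12.7 (0.18 ± 0.05, edgeR adjusted p 0.0042) and Rps24 from 17.8 and 17.9 to 19.6 and 19.9 (0.14 ± 0.05, edgeR adjusted p 0.016). Calls of these 3 were lost in the fit of all 10 libraries and without the first DMSO or the first GDC-0449 library, that of Rpl23a also without the second GDC-0449 library and that of Rps24 without each library in turn. The calls of Rps27 and Rps24 were also lost on FPKM. Rpl36a was at 0.12 ± 0.05, edgeR adjusted p 0.073. Rps6 (-0.02 ± 0.05, edgeR adjusted p 0.75) and Rplp0 (0.02 ± 0.05, edgeR adjusted p 0.76) did not pass, nor did Rpl5 (0.01 ± 0.05, edgeR adjusted p 0.91), Rpl11 (-0.08 ± 0.05, edgeR adjusted p 0.24), Rpl22 (0.01 ± 0.06, edgeR adjusted p 0.92), Rps3 (-0.06 ± 0.05, edgeR adjusted p 0.33), Rpsa (0.03 ± 0.05, edgeR adjusted p 0.66) and Rps27l (-0.05 ± 0.06, edgeR adjusted p 0.57). A p above the threshold does not show that they did not change.

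Between the lines under DMSO the median member stood where all genes stood by counts but not by FPKM, and single members differed. Under TMM scaling 25 of 78 were higher and 20 lower in SMB56-shSufu, with a median of 0.02 against 0.01 for all 10675 genes, and a background of 20.7% higher and 20% lower. On FPKM with limma the members' median was -0.13 against 0.03 for all genes, with 26 of 78 members above the median of all genes, 13 higher and 30 lower. Under mitochondrial scaling 0 were higher, 0 also at an unadjusted p below 0.05 in edgeR, and 69 lower. Against the family 20 were higher and 26 lower, with 12.4% and 30.4% of all genes. These 46 became 19 and 18 without the first and second SMB56 DMSO library. Under TMM scaling the higher members were then 6 and 4 and the lower ones 9 and 9. The libraries of the lines were deposited in separate tables of different depth, and line and table cannot be told apart.

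The lowest was Rps21, of the small subunit, with 15.2 and 15.8 per 1000 in SMB56 and 3.88 and 4.04 in SMB56-shSufu (-1.97 ± 0.10, edgeR adjusted p 0.00017), and 2519 and 2787 FPKM against 543 and 508 FPKM. The lines did not overlap in either unit. Rpl39, the small protein at the tunnel exit, fell from 9.36 and 9.27 to 3.26 and 3.46 per 1000 (-1.47 ± 0.10, edgeR adjusted p 0.00027). Rpl22 (-0.98 ± 0.11, edgeR adjusted p 0.00084), Rps27l (-0.72 ± 0.11, edgeR adjusted p 0.0032) and Rplp0 (-0.48 ± 0.10, edgeR adjusted p 0.0091) also fell, the last not without either SMB56 DMSO library. Rps29 (-1.29 ± 0.12), Rpl38 (-0.91 ± 0.09) and Rps27 (-0.88 ± 0.10) fell as well, whereas Rps28 (-0.16 ± 0.11, edgeR adjusted p 0.26) and Rpl41 (0.15 ± 0.11, edgeR adjusted p 0.29) did not pass.

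On the higher side Rps24, mutated in Diamond-Blackfan anaemia, had 17.8 and 17.9 per 1000 in SMB56 and 38.7 and 42.1 in SMB56-shSufu (1.17 ± 0.10, edgeR adjusted p 0.00051), and Rpl21 had 14.3 and 14.2 against 27.7 and 27.8 (0.96 ± 0.10, edgeR adjusted p 0.00069). Neither pair of groups overlapped. Rps15 rose in counts (0.63 ± 0.10, edgeR adjusted p 0.0033), a call lost on FPKM (0.20 ± 0.08, limma adjusted p 0.11) and without either SMB56 DMSO library. Rpsa (0.50 ± 0.10, edgeR adjusted p 0.0097) and Rps6 (0.51 ± 0.10, edgeR adjusted p 0.0074) rose, calls lost without either SMB56 DMSO library and, for Rps6, on FPKM. Rpl5 (0.09 ± 0.10, edgeR adjusted p 0.48), Rpl11 (-0.26 ± 0.10, edgeR adjusted p 0.069) and Rps3 (-0.10 ± 0.10, edgeR adjusted p 0.44) did not pass. Rps3a1 was highest (1.42 ± 0.12, edgeR adjusted p 0.00047), with 4.40 and 3.71 against 10.5 and 11.1 per 1000, whereas its near-copies Rps3a2 (-1.87 ± 0.19, edgeR adjusted p 0.00071) and Rps3a3 (-0.62 ± 0.09, edgeR adjusted p 0.0029) were lower. The 3 models summed to 11.5 and 11.5 per 1000 in SMB56 and 14.9 and 15.4 in SMB56-shSufu, and reads could be split among them.

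By counts 46 members were called between the lines and by FPKM also 46, of which 34 were called by both with the same sign, 12 higher and 22 lower. Shorter transcripts stood lower in SMB56-shSufu: the median fold change was -0.28 for the 37 members with transcripts under 751 bases and 0.01 for the 39 others, with a Spearman's rho of 0.38 with transcript length across 76 members. The part of transcript length and of library preparation in the line difference was not tested.

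**Figure D4:**
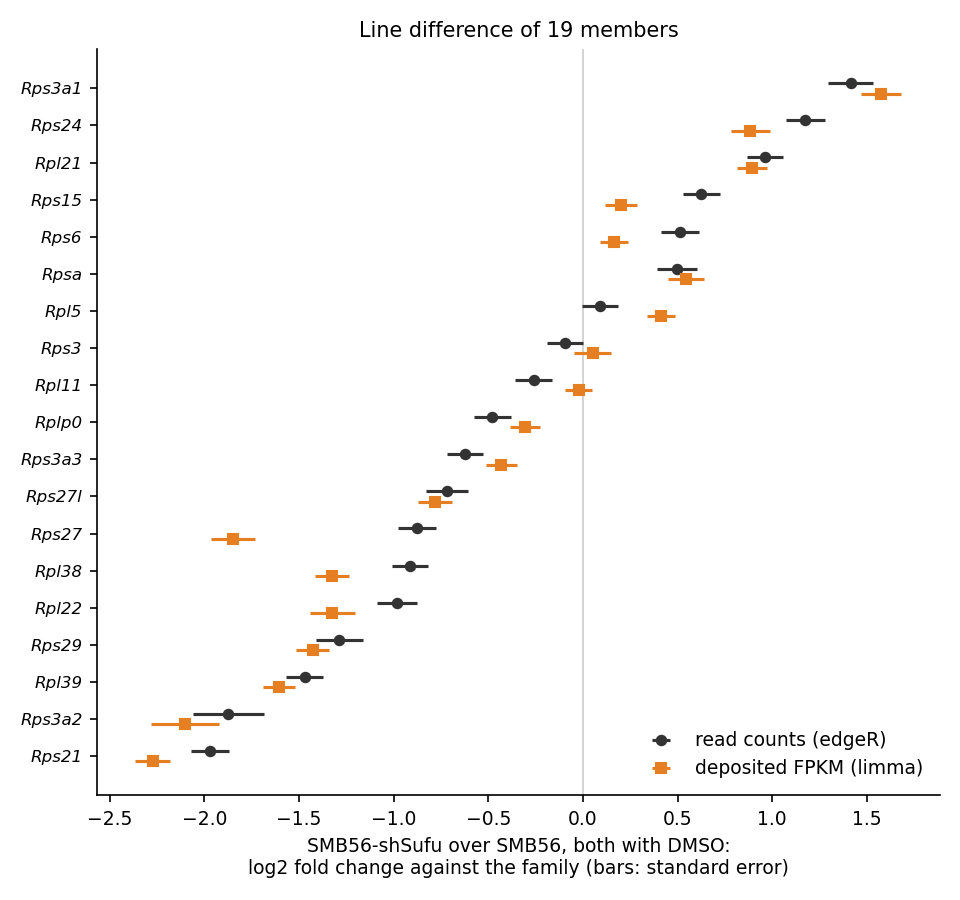
Log2 fold change of SMB56-shSufu over SMB56 under DMSO against the family, for 19 members named in the text, from read counts (circles) and from the deposited FPKM (squares), with standard errors. The estimates lie close together for Rps21 and Rpl39 and further apart for Rps27 (-0.88 by count and -1.85 by FPKM).

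Paralogues of members were read from the same tables. Rps27l made up 18.1% and 17.1% of the summed Rps27 and Rps27l counts in SMB56 with DMSO and 15.0% and 15.3% with GDC-0449, and 20.1% and 18.2% with DMSO against 14.6% and 13.7% with THZ1 in SMB56-shSufu. Rpl22l1, the paralogue of Rpl22 which outside this rule is counted with other ribosomal protein genes, had a log2 fold change under TMM scaling of 0.52 with THZ1 in SMB56, -0.04 in SMB56-shSufu and -1.96 between the lines. Rpl36al, the retrocopy of Rpl36a, was at 1.29 with THZ1 in SMB56 and 1.51 in SMB56-shSufu. On the same scale Rpl36a rose in SMB56 (0.52 ± 0.05, edgeR adjusted p 2.5e-09) and fell in SMB56-shSufu (-0.40 ± 0.16, edgeR adjusted p 0.048).

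Genes that work with the family were described under TMM scaling, where 44.3% of all genes were higher and 55.2% lower with THZ1 in SMB56, 29.5% and 32.3% in SMB56-shSufu, 17.5% and 18.8% with GDC-0449, and 20.7% and 20% between the lines. Several counts of the smaller lists lie near these shares, such as those of ribosome biogenesis and of mTORC1 and LARP1 genes with THZ1 in SMB56-shSufu. Another scaling shifts their values together: with THZ1 in SMB56 the median of all genes was -0.31 here, -0.0060 with DESeq2's size factors and -1.58 with mitochondrial scaling. The 14 mitochondrially encoded genes tested were all higher with THZ1 in SMB56 (median 1.37), as were 15 of 15 in SMB56-shSufu (1.32) and 13 of 14 with GDC-0449 (0.13). The nuclear genes of the mitochondrial ribosome were mostly lower with THZ1 in SMB56: 6 of 59 were higher and 53 lower, median -0.84. In SMB56-shSufu 5 of 77 were higher and 46 lower, median -0.72, with GDC-0449 2 of 72 higher and 9 lower, and between the lines 38 of 76 higher and 5 lower. Of 13 other TOP mRNAs, mostly translation factors, 9 were higher and 4 lower with THZ1 in SMB56 and, of 16, 3 and 4 in SMB56-shSufu. Eef1a1, which carries aminoacyl-tRNA to the ribosome, was at 0.66 in SMB56 and -0.01 in SMB56-shSufu. Ribosome biogenesis genes were lower with GDC-0449, 14 of 15 with a median of -0.31, and Ncl, encoding nucleolin, was at -0.33. With THZ1, 5 of 13 were higher and 8 lower in SMB56 and 4 and 5 of 15 in SMB56-shSufu. Of the ribosomal protein chaperones 1 of 7 was higher and 6 lower with THZ1 in SMB56, 2 and 6 of 8 in SMB56-shSufu, and 0 and 5 of 8 with GDC-0449. Of mTORC1 and LARP1 genes 2 of 7 were higher and 5 lower with THZ1 in SMB56, 2 and 3 of 7 in SMB56-shSufu, and 0 and 4 of 6 with GDC-0449. The other ribosomal protein genes, Fau and Rack1 among them, had 6 of 7 higher and 1 lower with THZ1 in SMB56 and 4 and 1 of 7 in SMB56-shSufu.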

How the data were processed

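RNA sequencing of 10 libraries, 2 in each of 5 groups, was deposited as 3 tables, each for 1 pair of groups. Each table holds read counts per gene that the authors made, deposited without normalization, and FPKM, which the authors corrected for transcript length and depth. Whether FPKM of the SMB56-shSufu table was normalized like that of the SMB56 tables was not tested. The authors' deposited log2 fold changes and adjusted p-values stand beside them and served only to describe which genes a table holds. Per the submitters' processing notes STAR 2.5.3a, Cufflinks 2.2.1 and DESeq2 1.20.0 were used with build hg19, a human build, although the gene IDs are mouse. Strand setting and counter are not given in the sources used here. The SMB56 DMSO values are identical in both SMB56 tables.

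Counts were tested with edgeR 4.0.16 in R 4.3.3 (quasi-likelihood F test, the 2 groups of a comparison, Benjamini-Hochberg over all genes tested, adjusted p below 0.05), under TMM scaling and again with libraries scaled by the summed counts of the 71 members held by all tables. The difference of the THZ1 effects used the genes both THZ1 tables hold. For the difference between lines under DMSO, genes of the SMB56-shSufu table that either SMB56 table holds were used. Alternatives used limma 3.58.1 on log2(FPKM + 0.1) and DESeq2 1.42.0, other scalings, no filter, a fit of all 10 libraries, a replicate block and leaving out each library. Rows with a blank or date name numbered 19 to 21 a table. Members named were those with the 4 highest and 4 lowest fold changes against the family in each comparison at a mean of at least 5 CPM, the 3 highest and 3 lowest by FPKM, a fixed set and paralogues. Some members and genes are not reported here. Members and gene lists were chosen with earlier results of these data known. Depth did not set the precision, since the deeper SMB56-shSufu libraries varied more within a group than the SMB56 libraries. Counting error is only part of the error.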

Additional observations from a re-analysis of the deposited data

Results flagged for a closer look

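The THZ1 effect against the family differed between the lines for 4 members, by a test of the difference itself with edgeR and Benjamini-Hochberg adjustment over 8204 genes. In SMB56-shSufu minus SMB56 the difference in log2 fold change was 0.75 ± 0.19 for Rps29 (edgeR adjusted p 0.0059) and 0.62 ± 0.19 for Rplp2 (edgeR adjusted p 0.014). It was -0.52 ± 0.18 for Rps6 (edgeR adjusted p 0.024) and -0.74 ± 0.18 for Rpl17 (edgeR adjusted p 0.0042). Both libraries of SMB56-shSufu with THZ1 lay on the same side of their DMSO libraries for each of the 4, which concerns that line alone and not the difference. The calls of Rps29, Rplp2 and Rps6 depended on single libraries, as given above, and line and table cannot be told apart.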

How the results depend on the processing

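With THZ1 in SMB56, the 73 members higher became 1 under mitochondrial scaling and 32 on FPKM, and stayed at 73 without each library. The 1 lower became 0 with DESeq2's size factors, DESeq2 or the fit of all 10 libraries (0 also at an unadjusted p below 0.05), 4 with library size, 69 with mitochondrial scaling, 8 on FPKM, 2 with no filter and 2 with the replicate block, and 0 to 2 without single libraries. The 41 called against the family became 23 in the fit of all 10 and 12 to 47 without single libraries. The median was -0.64 under mitochondrial scaling, where Rplp0 was at -0.027, Rps20 at -0.14, Rpl10a at -0.17, Rplp1 at -0.21, and Rpl15 and Rpl17 at -1.02. With DESeq2 and with its size factors Rps6 was at 0.14 and Rpl7a at 0.20, and in the fit of all 10 at 0.087 and 0.15. Rpl15 and Rpl17 were both at -0.11 with library size, and at -0.32 and -0.29 on FPKM. Against the family Rpl22 ranged from -0.026 without the second DMSO library to 0.067 without the first.

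With GDC-0449, the 8 higher became 0 under mitochondrial scaling, on FPKM and in the fit of all 10, 3 with DESeq2 and 3 to 10 without single libraries. The 16 lower became 10 with library size, 45 with mitochondrial scaling, 7 with DESeq2, 0 on FPKM and in the fit of all 10 (0 and 2 members at an unadjusted p below 0.05 there) and 6 to 23 without single libraries. The 9 called against the family became 2 on FPKM, 0 in the fit of all 10 (1 at an unadjusted p below 0.05), and 1 to 8 without single libraries.

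With THZ1 in SMB56-shSufu, the 23 higher became 3 with library size, 0 with mitochondrial scaling or FPKM, 35 in the fit of all 10 and 8 to 28 without single libraries. The 5 lower became 33, 66 and 39 with library size, mitochondrial scaling and FPKM, and 2 to 9 without single libraries. The 19 called against the family became 34 on FPKM, 42 in the fit of all 10 and 5 to 13 without single libraries. The median was -0.29 with library size, -1.22 with mitochondrial scaling, -0.57 on FPKM and from -0.039 to 0.28 without the first and second THZ1 library. Under mitochondrial scaling Rps29 was at -0.18, Rplp0 at -0.28, Rplp2 at -0.47 and Rplp1 at -0.54.

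For the difference of the THZ1 effects, the 42 lower became 1 with mitochondrial scaling, 68 with DESeq2, 11 on FPKM and 4 to 68 without single libraries, and the 4 against the family became 10 on FPKM, 8 in the fit of all 10 and 1 to 8. Between the lines, the 25 higher became 0 with mitochondrial scaling, 13 on FPKM and 4 to 35 without single libraries, the 20 lower became 69 with mitochondrial scaling and 9 to 32, and the 46 against the family 18 to 65. Rps3 was at 0.052 on FPKM. The cause of these changes was not tested.

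Differences between the first and second library correlated between the 2 groups of a comparison at 0.02 to 0.11 across genes. With a single such difference per group, this cannot tell whether the replicate numbers pair the libraries. With the replicate block, 54 members were called against the family with THZ1 in SMB56, 32 with GDC-0449, 16 with THZ1 in SMB56-shSufu, 4 in the difference of effects and 43 between the lines.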
